A study of Homo sapiens with 4 samples.

Results

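The major histocompatibility complex (MHC) of human chromosome 6 was examined for SAF-A occupancy in RPE1 cells. Its members were all SAF-A peaks whose summit lay between bases 28300001 and 33400000 of chromosome 6 on the hs1 assembly, chosen by position alone. They numbered 1544 of 371322 nuclear peaks over 4 libraries, and they merged into 916 of 242505 regions. SAF-A (scaffold attachment factor A, also called HNRNPU) is a nuclear protein that can bind chromatin as well as RNA. It was profiled by CUT&Tag, an assay in which an antibody brings a transposase to a chromatin protein, and DNA fragments freed there are sequenced. RPE1 is an immortalised, non-cancerous line of human retinal pigment epithelium, and all cells were wild type. There were 2 libraries of mitotic cells, synchronised by a treatment that the labels do not name, and 2 of asynchronous cells, numbered replicates 3 and 4 in each group. Whether replicates came from separate cultures is not stated in the labels, so every p-value below rests on a spread between libraries that may be technical.

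The MHC is a gene-dense stretch read in 3 parts from the short-arm end towards the centromere. The class I part holds HLA-B and HLA-C, which present peptides from inside the cell to cytotoxic T cells, and a block of olfactory receptor genes. The class III part holds no antigen-presenting HLA genes and is packed with short genes, among them the complement genes C2 and CFB, the cytokine gene TNF and the HSPA1A and HSPA1B heat-shock genes. The class II part holds the HLA-DR, HLA-DQ and HLA-DP genes, expressed mainly by professional antigen-presenting cells, and the peptide transporter genes TAP1 and TAP2. Here the parts were divided at rounded positions, class III starting at base 31400001 and class II at base 32300001. These edges are approximate, no annotation of hs1 was used, and no peak was assigned to a gene. The parts were 3.1, 0.9 and 1.1 Mb long. The adjoining 10.6 Mb of chromosome 6, from base 33400001 to 44 Mb, served as the reference.

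Library depth differed, and counts of peaks moved with it. The genome background, the smallest local background of a list in fragments per position, was 1.17 and 1.79 in mitotic replicates 3 and 4, against 1.38 and 1.17 in asynchronous replicates 3 and 4. The lists held 78900 and 114838 nuclear peaks in the mitotic libraries, against 101124 and 76460 in the asynchronous libraries. An exact two-sided permutation test of 2 against 2 libraries cannot give a p below 0.333, so no single value per library could pass 0.05. Heights given below as times the background or in log2 units are divided by a library's own background or median. A change common to the whole genome cannot be seen in them. Heights given in fragments are not divided, and they depend on depth.

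SAF-A peaks were dense in the MHC, and the number of summits overlapped between the cell states. The MHC held 316 and 483 summits in mitotic replicates 3 and 4, against 425 and 320 in asynchronous replicates 3 and 4. This is 62.0 and 94.7 summits per Mb in the mitotic libraries, against 83.3 and 62.7 in the asynchronous libraries, and the groups overlapped. The deeper library of each group had the more summits. Set against list length, the MHC took 4.01 and 4.21 of every 1000 nuclear peaks in the mitotic libraries, against 4.20 and 4.19 in the asynchronous libraries. The means were 4.11 ± 0.142 in mitotic and 4.19 ± 0.0124 in asynchronous cells (SD, n = 2 each), a difference of -0.0885 (exact permutation p = 1). By covered bases, as a share of every 1000 covered nuclear bases, the difference had the opposite sign, at 0.194, and the groups did not overlap (exact permutation p = 0.333).

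The MHC was denser in peaks than the neighbouring stretch of chromosome 6, and more so in strong peaks. The ratio of MHC to reference density was 1.12 and 1.13 in the mitotic libraries, against 1.16 and 1.103 in the asynchronous libraries. Its geometric mean was 1.13, or 0.17 ± 0.03 log2 units (SD, n = 4), above 1 in 4 of 4 libraries (exact two-sided sign-flip permutation p = 0.13, the smallest that 4 libraries allow). Among peaks with a deposited -log10 q of at least 5, the MHC held 20.8 and 35.5 summits per Mb in the mitotic libraries, against 26.3 and 20.2 in the asynchronous libraries. The reference stretch held 13.0 and 25.3 such summits per Mb in the mitotic libraries, against 16.8 and 13.6 in the asynchronous libraries. The ratio among strong peaks was thus 1.51 (0.60 ± 0.08 log2 units, SD, n = 4), above 1 and above the ratio for all peaks in 4 of 4 libraries (exact sign-flip permutation p = 0.13). Over the whole nuclear genome the density was lower than in either stretch, at 25.3 and 36.8 summits per Mb in the mitotic and 32.4 and 24.5 in the asynchronous libraries, counting chromosomes up to their last peak. The MHC stood 2.54-fold above that level.

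**Figure D1:**
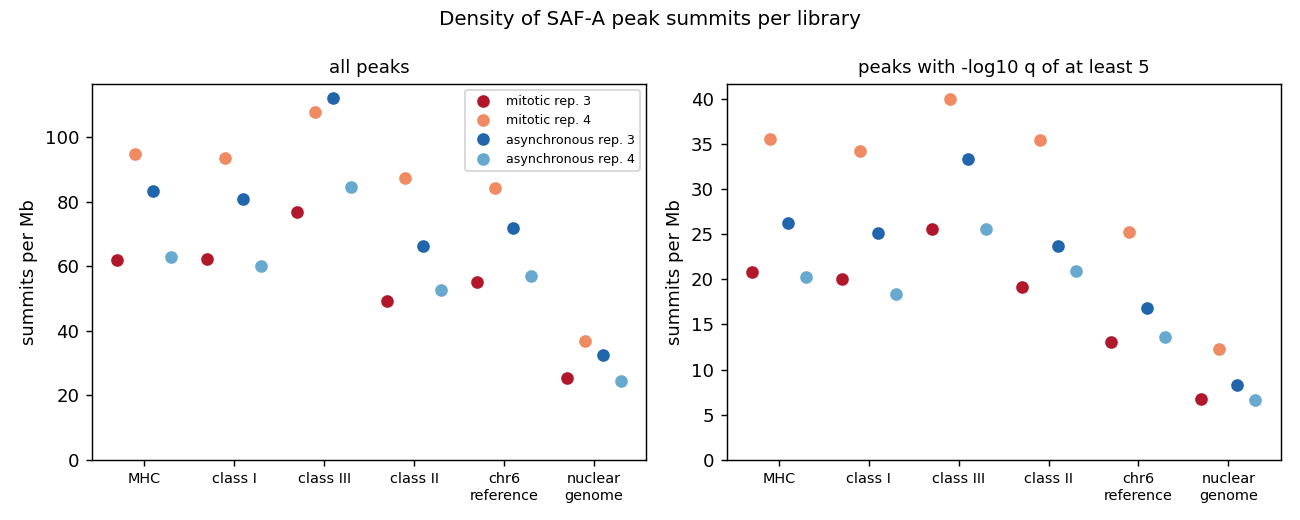
Summits per Mb (vertical axes) in the MHC, its 3 parts, the chromosome 6 reference stretch and the nuclear genome, for all peaks (left) and for peaks with -log10 q of at least 5 (right); each point is 1 library. The class III points for all peaks reach 76.7 to 112 summits per Mb. In each library the MHC point lies above its reference point, and the ratio of MHC to reference is larger among strong peaks.

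Density differed between the 3 parts in the same order in every library. In class I there were 193 and 290 summits in the mitotic libraries, against 251 and 186 in the asynchronous libraries, or 62.3 and 93.5 against 81.0 and 60 per Mb. Class III was the densest part in all 4 libraries, with 69 and 97 summits in the mitotic libraries, against 101 and 76 in the asynchronous libraries. Per Mb these are 76.7 and 108 in the mitotic libraries, against 112 and 84.4 in the asynchronous libraries. Its density was 1.43 times that of the reference stretch (0.51 ± 0.12 log2 units, SD, n = 4, higher in 4 of 4 libraries, exact sign-flip permutation p = 0.13). It was also 1.29 times that of class I (higher in 4 of 4 libraries, exact sign-flip permutation p = 0.13). Class II was the sparsest of the 3 in 4 of 4 libraries, with 54 and 96 summits in the mitotic libraries, against 73 and 58 in the asynchronous libraries. Its density was 0.943 times that of the reference stretch for all peaks (-0.08 ± 0.10 log2 units, SD, n = 4, exact sign-flip permutation p = 0.25) and 1.45 times for strong peaks (p = 0.13 by the same permutation test). With both edges moved 100 kb higher, the first of these ratios changed sign, to 0.01 log2 units.

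Of the parts, class III was the one whose share of summits did not overlap between the states. It took 0.875 and 0.845 of every 1000 nuclear peaks in the mitotic libraries, against 0.999 and 0.994 in the asynchronous libraries. The difference was -0.137 (exact permutation p = 0.333, the smallest possible). Such separation was common, since the groups did not overlap in 33.9% of 13843 nuclear bins of 100 kb. Mitotic values were the lower in 18.8% of those bins. For class I the shares were 2.45 and 2.53 in the mitotic libraries, against 2.48 and 2.43 in the asynchronous libraries (exact permutation p = 0.667). The class II shares were 0.684 and 0.836 in the mitotic libraries, against 0.722 and 0.759 in the asynchronous libraries (exact permutation p = 1). The separation in class III was not seen in covered bases. Class III coverage over nuclear coverage was 3.60 and 3.43 in the mitotic libraries, against 3.72 and 3.58 in the asynchronous libraries, and these groups overlapped (exact permutation p = 0.667). The median peak width in class III was 326 and 374 bp in the mitotic libraries, against 310 and 285.5 bp in the asynchronous libraries. Mitotic and asynchronous lists stood apart over the whole nuclear genome as well, with medians of 312 and 328 bp in mitotic and 299 and 286 bp in asynchronous cells, and the part of peak width in the summit share was not tested.

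Along 51 bins of 100 kb, peaks were dense and sparse at the same places in both states. The median bin held 32 summits summed over the 4 libraries, with a range of 1 to 64, against a median of 30 and a range of 0 to 55 over 106 reference bins. The median over all 31185 nuclear bins was 5. The runs of bins described next were marked out after seeing the counts and carry no test. From the start of the stretch to 28.9 Mb the density was 55 and 73.3 summits per Mb in the mitotic libraries, against 55 and 36.7 in the asynchronous libraries. From 28.9 to 29.4 Mb it was 10 and 26 in the mitotic libraries, against 12 and 8 in the asynchronous libraries. This is the first of the sparse runs, and it held no region called in all 4 libraries.

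From 29.9 Mb to the end of class I lay the dense run of that part, at 84 and 124 summits per Mb in the mitotic libraries, against 114 and 92 in the asynchronous libraries. It held 47 of the 52 class I regions called in all 4 libraries. The run from the start of class III to 32.1 Mb, which holds all 22 such regions of class III, was denser still, at 94.3 and 133 summits per Mb in the mitotic libraries, against 139 and 104 in the asynchronous libraries. The second sparse run, from 32.1 to 32.6 Mb, had 22 and 22 summits per Mb in the mitotic libraries, against 20 and 12 in the asynchronous libraries, with no region called in all 4. From 32.6 Mb to the end of class II the density was higher again, at 57.5 and 111 in the mitotic libraries, against 83.8 and 68.8 in the asynchronous libraries. All 18 class II regions called in all 4 libraries lay there.

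**Figure D2:**
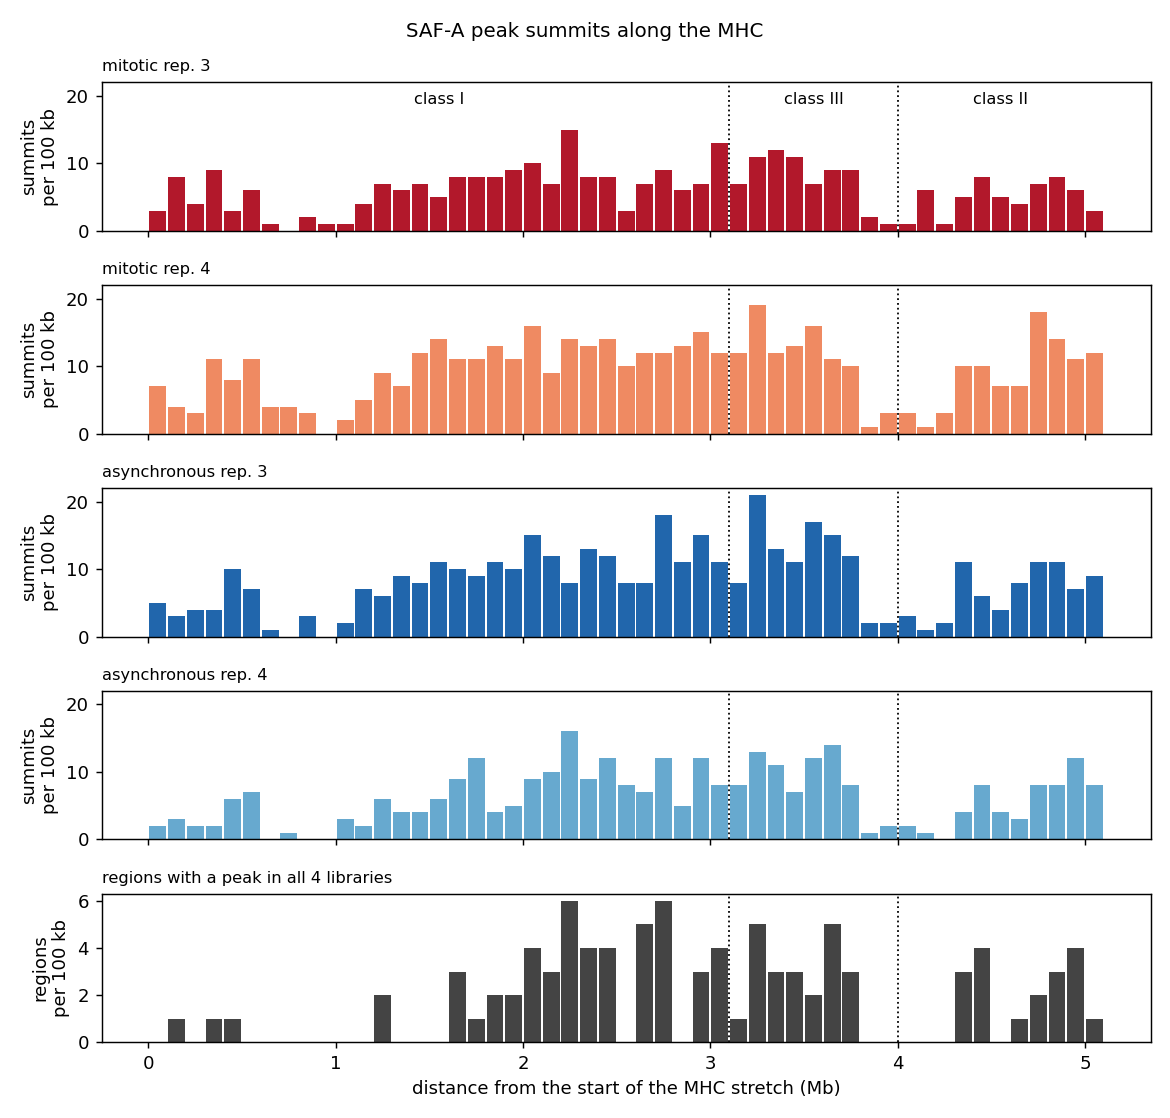
Number of peak summits per 100 kb bin (vertical axes) against distance from the start of the MHC stretch in Mb, for each library, with the number of regions called in all 4 libraries at the bottom; dotted lines mark the part edges. Bins near 0.6 to 1.1 Mb and near 3.8 to 4.3 Mb hold 0 to 4 summits per library, apart from 1 bin with 6 in mitotic replicate 3, and the bottom panel is empty there.

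The fullest bin of the MHC was in class III, from 31.5 to 31.6 Mb, with 11 and 19 summits in the mitotic libraries, against 21 and 13 in the asynchronous libraries. It ranked at the 99.7 percentile of all nuclear bins. The next in class III began at 31.8 Mb, with 7 and 16 against 17 and 12 summits in mitotic and asynchronous libraries, and at 31.9 Mb, with 9 and 11 against 15 and 14. In class I the fullest bins began at 30.5 Mb (15 and 14 summits in mitotic, against 8 and 16 in asynchronous libraries), 31.0 Mb (9 and 12 against 18 and 12) and 30.3 Mb (10 and 16 against 15 and 9). In class II they began at 33.0 Mb (7 and 18 against 11 and 8), 33.1 Mb (8 and 14 against 11 and 8) and 33.2 Mb (6 and 11 against 7 and 12). These 9 bins lay between the 91.7 and 99.7 percentiles of nuclear bins.

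The emptiest bin, from 29.2 to 29.3 Mb, held 1 summit in mitotic replicate 3 and none in the other libraries. The bin at 29.0 Mb held 0 and 4 summits in the mitotic libraries, against 0 and 1 in the asynchronous libraries. The bins at 28.9, 32.1 and 32.5 Mb held 6 summits each over the 4 libraries. The longest stretch without a peak in any library ran from 29205749 to 29348521, 143 kb, in class I. The next, from 32337480 to 32411321, was 73.8 kb long and lay in class II. In the reference stretch the longest peak-free run was 464 kb. Between neighbouring regions the median gap was 3.39 kb in the MHC and 3.36 kb in the reference stretch. Between neighbouring regions called in all 4 libraries it was 22.9 kb in the MHC and 35.4 kb in the reference stretch.

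The profile over bins was alike between libraries whichever state they came from. Spearman's rho over the 51 bins was 0.684 between the mitotic and 0.798 between the asynchronous libraries, and 0.680 to 0.811 for the 4 pairs across states. Neighbouring bins are not independent, and the libraries differ in depth. At the edges of the MHC stretch, the last bin inside the upper edge held 32 summits over the 4 libraries and the first outside it held 45. At the lower edge the first bin inside held 17 and the last outside held 26.

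No 100 kb bin of the MHC differed between the states by the fit over the whole genome. Summits per 100000 nuclear peaks were compared by limma with Benjamini-Hochberg adjustment on log2 of the value plus 1, over 13843 nuclear bins with at least 8 summits. Of 46 MHC bins tested, 0 passed an adjusted p of 0.05 (0% of all bins passed), and 3 had an unadjusted p under 0.05, or 6.52% against 5.89% over all bins. The groups did not overlap in 14 of the 46 bins (30.4%), against 33.9% over all bins. Mitotic values were the higher in 4 (8.70%) and the lower in 10 (21.7%), against 15.2% and 18.8% over all bins. The median difference was 0.00 log2 units in the MHC and over all bins. The fit could see large changes only, since on simulated tables of these 13843 bins it recovered 0.5% of 2-fold and 84.5% of 4-fold changes.

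The bin with the smallest p in the MHC began at 28.6 Mb in class I. It held 9 and 11 summits in the mitotic libraries, against 4 and 2 in the asynchronous libraries, and the groups did not overlap. On the log2(value + 1) scale it was 1.44 higher in mitotic cells (SE 0.40, limma adjusted p = 0.413). The difference ranged from 1.21 to 1.66 with libraries left out, and was 0.43 among peaks with a -log10 q of at least 5. Bins at 28.4 Mb (0.68, SE 0.46) and 29.7 Mb (0.51, SE 0.36) followed in that direction, with limma adjusted p of 0.908 and 0.913. The 28.4 Mb bin was at 0.02 with mitotic replicate 3 left out and at 1.33 with mitotic replicate 4 left out. The 29.7 Mb bin was at 0.77 with asynchronous replicate 3 left out and at 0.25 with asynchronous replicate 4 left out. In the other direction stood the class III bin at 31.9 Mb, at -0.61 log2 units (SE 0.27, limma adjusted p = 0.796). The class I bin at 31.0 Mb was at -0.57 (SE 0.26, limma adjusted p = 0.809), and the class III bin at 31.8 Mb at -0.51 (SE 0.27, limma adjusted p = 0.839), or -0.21 with mitotic replicate 3 and -0.80 with mitotic replicate 4 left out.

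Regions were shared between libraries somewhat more often in the MHC than in the reference stretch. Of 916 MHC regions, 63.5% had a peak in 1 library (95% Wilson interval 60.4% to 66.6%), 17.0% in 2, 9.39% in 3 and 10.04% (8.26% to 12.2%) in all 4. Of 1852 reference regions, 70.0% (67.9% to 72.0%) had a peak in 1 library and 7.24% (6.14% to 8.51%) in all 4. Over all nuclear regions the shares were 71.8% and 8.38%. Wilson intervals cover counting error only, and neighbouring regions are not independent. By library, 30.7% and 19.7% of MHC peaks in the mitotic libraries lay in regions called in all 4, against 23.3% and 29.7% in the asynchronous libraries. The share was 1.29 times that of the reference stretch (0.37 ± 0.03 log2 units, SD, n = 4, higher in 4 of 4 libraries, exact sign-flip permutation p = 0.13).

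Sharing differed little between the parts. Regions called in all 4 libraries made up 9.32% of 558 class I regions (Wilson 7.18% to 12.0%), 11.6% of 189 class III regions (7.81% to 17.0%) and 10.7% of 169 class II regions (6.84% to 16.2%). Per Mb there were 16.8 such regions in class I, 24.4 in class III and 16.4 in class II, against 12.6 in the reference stretch and 6.52 over the nuclear genome. Shared peaks were higher and wider than those found once. This contrast is partly set in advance, since a shared region had to pass the peak caller in every library. In the mitotic libraries, MHC peaks of regions called in all 4 had median summit pileups of 23 and 38 fragments, and peaks called in 1 library had 10 and 13. The corresponding medians in the asynchronous libraries were 27 and 24 fragments, and 12 and 11. Median widths of the shared peaks were 484 and 620 bp in the mitotic libraries, against 493 and 381 bp in the asynchronous libraries. For peaks called in 1 library they were 295 and 305.5 bp, against 254.5 and 249 bp. Pileups here are the number of fragments over the summit, recovered from the authors' fold and p.

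**Figure D3:**
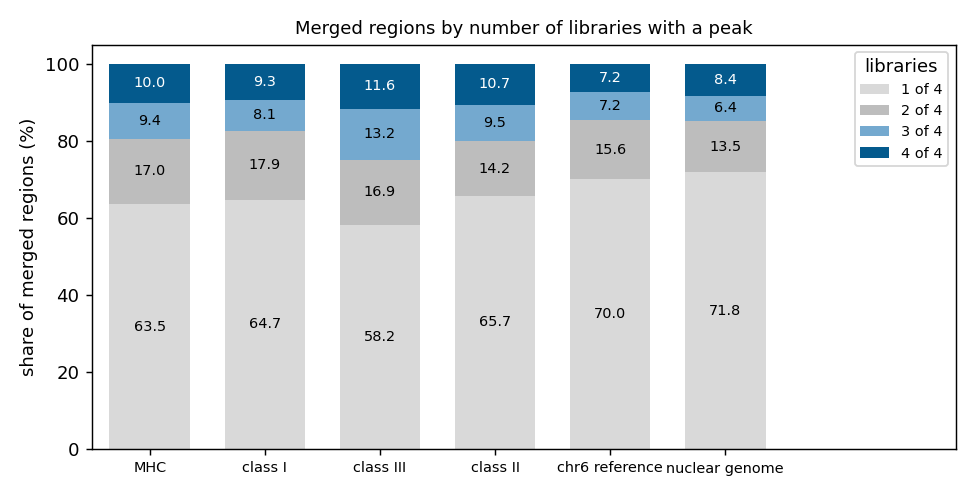
Share of merged regions (vertical axis, percent) with a peak in 1, 2, 3 or all 4 libraries, for the MHC, its 3 parts, the chromosome 6 reference stretch and the nuclear genome. Regions called in all 4 libraries are 10.04% of MHC regions, against 7.24% in the reference stretch and 8.38% over the nuclear genome.

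Libraries of one state shared about as much MHC sequence as libraries of different states. The bases covered by both lists of a pair, as a share of the bases covered by either (the Jaccard index), made up 24.0% between the mitotic and 22.1% between the asynchronous libraries. Across states it lay between 20.1% and 25.3%, with the highest value between mitotic replicate 4 and asynchronous replicate 3, which had the longest lists. In the reference stretch the index was 19.4% between the mitotic and 17.0% between the asynchronous libraries, and 16.5% to 21.0% across states.

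Few MHC regions had a peak in both libraries of one state and in neither of the other. Regions with a peak in both mitotic and neither asynchronous library numbered 33 of 916 (3.60%, Wilson 2.58% to 5.02%), where 2.8% of all nuclear regions had this pattern. Regions with a peak in both asynchronous and neither mitotic library numbered 15 (1.64%, Wilson 0.995% to 2.68%), where 1.66% of all nuclear regions did. In the reference stretch these patterns made up 2.97% and 2.11%. Among peaks with a -log10 q of at least 5, 5 of 254 MHC regions were mitotic-only (1.97%), where 4.24% of all nuclear regions at that threshold were. There 2 were asynchronous-only (0.787%), where 1.01% of all nuclear regions were. By part, 20, 8 and 5 mitotic-only regions and 8, 5 and 2 asynchronous-only regions lay in class I, class III and class II. Their median pileups were 11 and 17 fragments in the mitotic libraries for mitotic-only regions, where all MHC peaks had 14 and 17. For asynchronous-only regions they were 12 and 14 fragments in the asynchronous libraries, where all MHC peaks had 15 and 14.

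The highest mitotic-only region lay in class II, from 33026780 to 33027272, with 31 and 47 fragments at its summit in the mitotic libraries and no asynchronous peak. Next in class II was 32791849 to 32792309, with 21 and 34 fragments. It was followed by 31628173 to 31628645 in class III (24 and 28 fragments) and, in class I, by 30275744 to 30276067 (21 and 31) and 31350782 to 31351216 (19 and 30). The highest asynchronous-only region, 31860639 to 31861131 in class III, had 29 and 16 fragments in the asynchronous libraries and no mitotic peak. The other 4 were 29806213 to 29806652 in class I (20 and 19 fragments), 31963779 to 31964250 in class III (16 and 22), 31006628 to 31006929 in class I (16 and 16) and 31541243 to 31541837 in class III (17 and 14). A list without a peak at a place need not lack SAF-A there, since only places that passed the authors' peak caller are listed.

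Of the 10 MHC regions with the highest mean percentile of pileup over the lists that held them, 9 were called in all 4 libraries. The other, singled out after its values were seen, was 31940926 to 31941198 in class III, with 58 fragments in asynchronous replicate 3 and no peak in the other libraries. Ranked by mean percentile within the lists over regions called in all 4 libraries, the first was 32030356 to 32032072 in class III, near the upper end of its dense run. It had 92 and 130 fragments in the mitotic libraries, against 96 and 86 in the asynchronous libraries. Over the genome background this was 75.6 ± 4.03 times in mitotic and 71.7 ± 2.91 times in asynchronous cells (SD, n = 2 each). Libraries of the 2 states overlapped, and in every list its percentile was at least 99.4.

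The second was 31025696 to 31027404 in class I, with 68 and 134 fragments in the mitotic libraries, against 110 and 76 in the asynchronous libraries, or 66.5 ± 12.0 and 72.5 ± 10.3 times the background (SD, n = 2 each). The third, 29930886 to 29931899 in class I, had 52 and 135 fragments in the mitotic libraries, against 97 and 81 in the asynchronous libraries. Here mitotic replicate 3 stood apart, at 44.3 times the background, against 75.5 in mitotic replicate 4 and 70.4 and 69.5 in the asynchronous libraries. The fourth, 30581320 to 30581978 in class I, had 52 and 116 fragments in the mitotic libraries, against 77 and 85 in the asynchronous libraries. In class III, 31679928 to 31681050 had 61 and 95 fragments in the mitotic libraries, against 82 and 57 in the asynchronous libraries. Also in class III, 32048321 to 32049439 had 47 and 117 against 86 and 62 fragments.

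The remaining 4 of the 10 began at 30420306, 30772449 and 30990534 in class I and at 31473039 in class III. Of the 10, 6 were in class I, 4 in class III and none in class II, and their mean percentiles ran from 97.6 to 99.6. At 30420306 both mitotic libraries stood below both asynchronous libraries, with 37.5 and 44.8 times the background, against 52.2 and 56.6 times (-0.38 log2 units relative to the median of shared regions, SE 0.19, limma adjusted p = 0.564). Mitotic replicate 3 was the lowest library in 7 of the 10 regions when heights were set against the background.

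**Figure D4:**
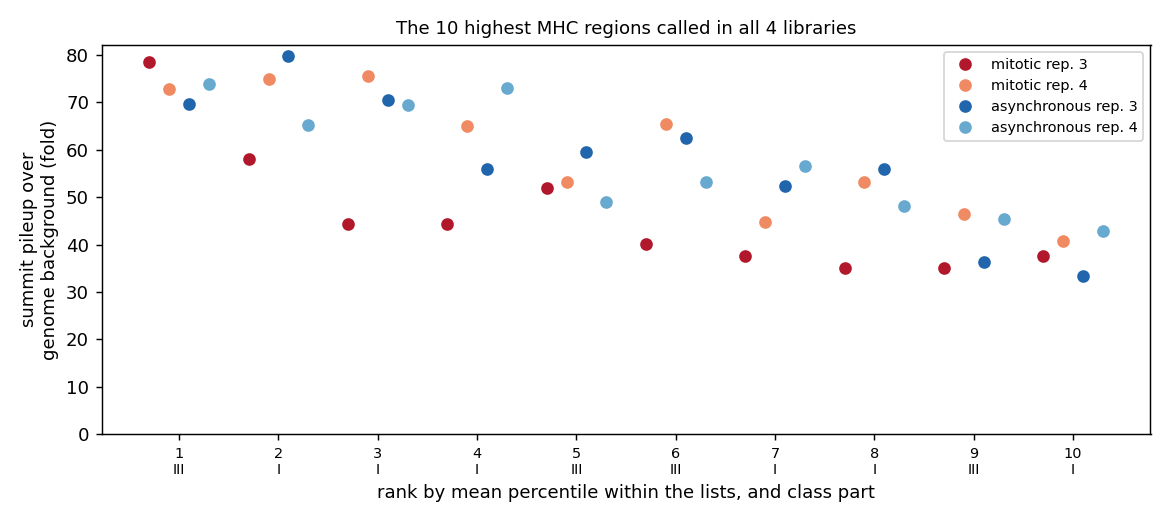
Summit pileup over the genome background of the library (vertical axis, fold) at the 10 MHC regions with the highest mean percentile among those called in all 4 libraries (horizontal axis, rank and class part); each point is 1 library. The first region reaches 69.6 to 78.4 times the background in every library, and mitotic replicate 3 is often the lowest.

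Although class II had no region among these 10, its typical shared region was as high as those of the other parts or higher. The median height of the 18 class II regions was 24.3 and 25.7 times the background in the mitotic libraries, against 25.02 and 24.9 in the asynchronous libraries. For the 22 class III regions it was 21.7 and 21.5 in the mitotic libraries, against 19.9 and 20.2 in the asynchronous libraries. These groups did not overlap (difference 1.59, exact permutation p = 0.333). Region by region, with heights set against each library's median over shared regions, 12 of the 22 were higher and 10 lower in mitotic cells. The median of these differences was 0.01 log2 units. For the 52 class I regions the median height was 17.9 and 20.1 times the background in the mitotic libraries, against 19.2 and 19.3 in the asynchronous libraries. Over all 92 MHC regions the medians averaged 21.0 ± 0.762 in mitotic and 20.4 ± 0.192 in asynchronous cells (SD, n = 2 each, exact permutation p = 0.667). The direction of this last difference turned without mitotic replicate 4, to -0.899, and without asynchronous replicate 3, to -0.277. The reference stretch stood at 19.0 ± 1.58 in mitotic and 19.3 ± 0.611 in asynchronous cells (SD, n = 2 each).

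Strong peaks were more common in every part than in the reference stretch. The share of peaks above the 90 percentile of pileup in their own list was 16.1% and 15.5% in the MHC of mitotic libraries, against 12.9% and 14.7% in that of asynchronous libraries. In class II it was 22.2% and 20.8% in the mitotic libraries, against 19.2% and 20.7% in the asynchronous libraries. In class III it was 20.3% and 16.5% in the mitotic libraries, against 14.9% and 14.5% in the asynchronous libraries. In class I it was 13.0% and 13.4% in the mitotic libraries, against 10.4% and 12.9% in the asynchronous libraries. The reference stretch had 9.40% and 10.2% in the mitotic libraries, against 8.42% and 9.29% in the asynchronous libraries. The MHC share was 1.59 times that of the reference stretch (higher in 4 of 4 libraries, exact sign-flip permutation p = 0.13). Mitotic libraries were above asynchronous ones in the MHC, in each part and in the reference stretch, and the groups did not overlap (exact permutation p = 0.333 in each). Over the nuclear genome the share is set by its definition, apart from ties among whole-number pileups. There it was 10.5% and 10.3% in the mitotic libraries, against 9.71% and 10.2% in the asynchronous libraries, and the groups did not overlap either. The same ties enter the share of each stretch, and their part in the separation of the states was not tested.

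None of the 92 shared MHC regions differed in height between the states by the fit over all shared regions. Log2 pileups, each relative to its library's median over 20334 nuclear regions called in all 4 libraries, were compared by limma with Benjamini-Hochberg adjustment. Of the 92 MHC regions 0 passed an adjusted p of 0.05, where 0.059% of all regions did, and 0.0492% with the higher value in mitotic cells. With an unadjusted p under 0.05 there were 7 (7.61%), against 8.9% of all regions, of which 3 were higher and 4 lower in mitotic cells. The groups did not overlap in 31 regions (33.7%), against 37.3% over all regions. Of the 92, 19.6% had all mitotic values higher and 14.1% had them lower, against 17.1% and 20.2% over all regions. The median difference was 0.01 log2 units in the MHC, -0.03 in the reference stretch and -0.02 over all regions. In the MHC 92.4% of regions lay within 0.5 log2 units, against 86.6% in the reference stretch and 89.4% over all regions. On simulated tables of the 20334 regions the fit recovered 61.5% of 2-fold and 100% of 4-fold changes. With 2 residual and 219 prior degrees of freedom, SE and p rested mostly on the spread pooled over all regions.

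**Figure D5:**
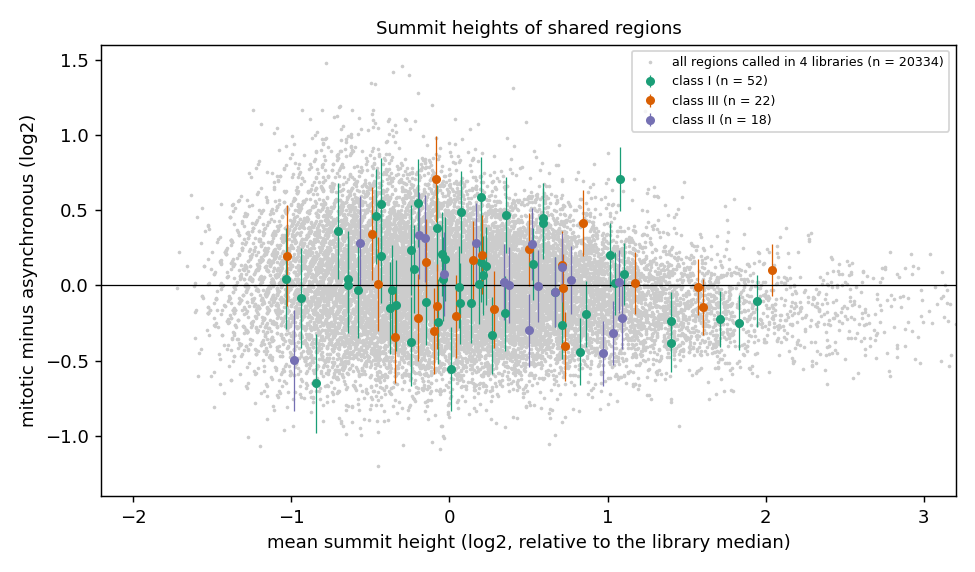
Mitotic minus asynchronous difference in summit height (vertical axis, log2) against mean height relative to the library median (horizontal axis, log2) for the shared MHC regions, coloured by part with limma SE bars, over all 20334 shared regions in grey; 60 grey points lie beyond the axes. The MHC points lie between -0.65 and 0.71 log2 units, around 0.

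The region with the smallest p was 30993766 to 30994334 in class I. It had 69 and 70 fragments in the mitotic libraries, against 48 and 30 in the asynchronous libraries, a difference of 0.71 log2 units (SE 0.21, limma adjusted p = 0.17), and of 0.38 without mitotic replicate 3. A second region of the same neighbourhood, 31005196 to 31005815, had 29 and 45 fragments in the mitotic libraries, against 27 and 17 in the asynchronous libraries (0.59 log2 units, SE 0.26, limma adjusted p = 0.474), or 0.37 without asynchronous replicate 4. In class III, 31798634 to 31799751 had 29 and 33 against 19 and 15 fragments in mitotic and asynchronous libraries (0.71 log2 units, SE 0.28, limma adjusted p = 0.406), or 0.46 without mitotic replicate 3.

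In the other direction, 33231382 to 33232429 in class II had 32 and 58 fragments in the mitotic libraries, against 52 and 53 in the asynchronous libraries (-0.45 log2 units, SE 0.21, limma adjusted p = 0.516). In class I, 31394891 to 31395669 had 13 and 35 fragments in the mitotic libraries, against 26 and 30 in the asynchronous libraries (-0.55, SE 0.28, limma adjusted p = 0.557). Leaving out mitotic replicate 3 gave -0.18, leaving out mitotic replicate 4 gave -0.97, and leaving out asynchronous replicate 4 gave -0.34. The class I region 28713471 to 28714034 had 10 and 13 fragments in the mitotic libraries, against 15 and 17 in the asynchronous libraries (-0.65, SE 0.33, limma adjusted p = 0.558). It was also the last region called in all 4 libraries before the first sparse run, since the next one began at 29506958, after a gap of 793 kb. The second such gap, 616 kb long, ran from 32049440 to 32665625 across the approximate border of class III and class II.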

How the data were processed

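Per the labels' protocols, CUT&Tag used 100000 cells, an antibody against SAF-A and 1 pg of E. coli DNA as spike-in, sequenced as paired reads of 150 bases. The submitters' processing notes name the hs1 build and MACS2, bedtools, Bowtie2 and fastp. Versions, parameters, controls and the role of the spike-in were not given in the sources used here. The authors deposited 1 peak list per library. The fold enrichment that the authors deposited is a ratio (pileup at the summit over local background), their -log10 p and q values come from the peak caller, and the deposited score, about 10 times -log10 q, was not used. All are each peak's own values. The smallest -log10 q was just above 1 in each list.

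Summit pileups were solved from fold = (pileup + 1) / (background + 1) and p as a Poisson upper tail; 100% of MHC pileups came out whole within 0.05. Peaks sharing at least 1 bp were merged, and a region was placed by its highest-ranked summit. Groups came from the titles. Exact two-sided permutation tests compared per-library values. Fits used limma 3.58.1 with a trended prior (R 4.3.3; Python 3.11.15), Benjamini-Hochberg adjustment and a threshold of 0.05. They were tested on simulated data, with noise drawn from the within-group spread of regions or bins of like level. The members, lists and tests were chosen with earlier results of these data known. Named were the 10 highest shared regions, the 3 regions and bins of smallest p in each direction, the 5 highest state-only regions per state, and the 3 fullest bins per part with the 5 emptiest overall. Genes had been listed too, but no hs1 annotation was used, so no gene was assigned.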

Additional observations from a re-analysis of the deposited data

How the results depend on the processing

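Alternatives were a -log10 q of at least 5, lists shortened to 76460 peaks each, a common smallest width of 183 bp, covered bases, other scalings, pseudocounts, bins and overlaps, a block for the replicate number, and leaving out each library; part edges moved by 100 kb were added after seeing the data. A difference or ratio was counted as kept if its sign stayed, whatever its size. For named regions and bins the call had to stay as well. None of them had passed in the main fit, and those that dropped out of an alternative were not counted for it. The share of regions in all libraries had to lie within the main Wilson interval, and state-only counts had to stay near the main count. Differences under the replicate block cannot move and were counted as kept. Leaving out a library cannot turn the sign of a difference whose groups did not overlap, and these were counted as kept too. By these rules 231 of 261 recomputed values were kept. No MHC region or bin passed under any of them; over all shared regions 12 passed, against 0 to 31 in the alternatives. The mitotic minus asynchronous difference in MHC summit share turned to 0.194 by covered bases and 27 unscaled, and ranged from -0.189 to 0.0119 with libraries left out. The difference in the log2 ratio of MHC to reference density turned to 0.00425 with equal lists and ranged from -0.0482 to 0.0273. The class I share turned to -0.0338 at the stricter threshold and -0.0385 with the common width (-0.0112 to 0.0679 with libraries left out). The class II share turned to -0.0527 at the stricter threshold and -0.0131 with equal lists (-0.0558 to 0.0957). Class II density against the reference turned to 0.00716 log2 units with edges 100 kb higher and 0.539 at the stricter threshold. The class III share stayed lower in mitotic cells in all 9 alternatives run (-0.153 to -0.105). Those that left out a library could not turn this sign, since the groups did not overlap. Regions in all libraries made up 5.80% with a reciprocal overlap of 50% and 20.9% at the stricter threshold, and 13.7% to 15.6% over 3 libraries. State-only regions at the stricter threshold numbered 5 mitotic and 2 asynchronous. With a library left out they numbered 45 to 227 mitotic and 24 to 186 asynchronous, since fewer libraries then define them. The mitotic minus asynchronous difference in median shared height ranged from -0.899 to 1.51 times the background with libraries left out. Each of these values was taken over the regions shared by the libraries kept, so the set of regions changed too. The cause of these shifts was otherwise not tested.

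Whether libraries of the same replicate number were handled together is not stated in the labels. They deviated with a correlation of -0.0493 over shared regions and -0.0252 over bins, a contrast of 2 pairs that cannot settle this. In this balanced design a replicate block cannot change a difference, so the MHC summit share difference of -0.0885 under it was fixed in advance. Only SE and p could move, and with the block 0 MHC regions and 0 MHC bins passed. At this depth the bin fit recovered 0.5% of 2-fold changes in simulated tables of 13843 bins.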
